A study of Mus musculus with 10 samples.

Results

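The transcripts of 10 genes that mark mitochondria for degradation or build the autophagosome were followed in interscapular brown fat (iBAT): Pink1, Bnip3, Bnip3l, Fundc1, Sqstm1, Map1lc3a, Map1lc3b, Gabarapl1, Ulk1 and Becn1. They were chosen by name from the 15075 genes of the expression table, and all 10 were measured above the level set for testing. The samples were 5 Control and 5 AdCKO mice aged 20 weeks, with 1 mRNA sequencing library per mouse. AdCKO mice carried Adipoq-Cre, which is driven by the adiponectin promoter and thus acts in adipocytes, and were homozygous for a floxed Crls1 allele with exon 4 between loxP sites. Control mice carried the same homozygous floxed allele without Cre, although the sample labels call them wild-type, so no mouse had 2 unmodified alleles and the Cre transgene alone was not a group. All mice were labelled C57BL/6 and housed at room temperature. Crls1 encodes cardiolipin synthase, which makes the signature phospholipid of the inner mitochondrial membrane. Levels are the deposited normalized reads per kb, a unit that allows genes of different length to be set side by side.

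Mitophagy is the removal of mitochondria by autophagy. In the ubiquitin route, the kinase PINK1 builds up on damaged mitochondria and recruits the ubiquitin ligase Parkin, and adaptors such as SQSTM1 (p62) tie the ubiquitin to ATG8 proteins on the growing autophagosome. In the receptor route, BNIP3, BNIP3L (NIX) and FUNDC1 sit in the outer mitochondrial membrane and bind ATG8 proteins directly. ULK1 starts autophagosome formation, Beclin 1 (Becn1) belongs to the lipid kinase complex that acts next, and LC3 and GABARAP proteins are the ATG8 family. In thermogenic fat, autophagy and mitophagy are known for clearing mitochondria when brown or beige adipocytes whiten. RNA levels alone do not measure the rate of this clearance.

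Crls1 itself had a level of 1060 ± 191 in Control mice and 217.3 ± 26.4 in AdCKO mice (normalized reads per kb, SD, n = 5), 20.5% of Control, as the labels require. The brown adipocyte markers Ucp1 and Cidea were high in all libraries, but 6 such markers summed to between 45940 and 68780 in Control libraries but between 14040 and 33150 in AdCKO libraries. That sum is mostly Ucp1 and Cidea, and of the 6 markers 4 were called lower and 1 higher (Ppargc1a, which encodes a coactivator of mitochondrial genes, with a log2 fold change of 2.24). The 7 macrophage markers went the other way, and 7 of 7 rose: their sum was 513.7 to 1591 in Control libraries and 6547 to 8870 in AdCKO libraries. Skeletal muscle markers set AdCKO libraries apart from each other: their summed level was 5416, 20410 and 7851 in AdCKO 1, 2 and 4, against 264.1 and 271.3 in AdCKO 3 and 5 and 436.2 to 476.9 in Control. Most of the Control sum was Myl1 (330.0 to 396.8), which was at 137.9 and 159.0 in AdCKO 3 and 5. Acta1 went the other way, at 93.29 and 74.47 in AdCKO 3 and 5 against a Control maximum of 56.06. The sum thus does not show less muscle RNA in AdCKO 3 and 5 than in Control. Lymphoid markers summed to 143.2 in AdCKO 1 and to at most 36.89 in the other libraries. Summed levels of endothelial markers overlapped (1086 to 1425 and 1134 to 1584), whereas those of general adipocyte markers did not (160800 to 194100 in Control, 115700 to 135000 in AdCKO). The adipocyte sum was mostly Fabp4 (134100 to 163900 in Control, 101200 to 115800 in AdCKO), which was not called with the authors' normalization. Levels of Pparg and Cfd overlapped between the groups, and those of the other adipocyte markers did not. The adipocyte difference depended on scaling, since 4 of 6 such markers were called lower with the authors' normalization, 1 with equal totals and 0 after quantile normalization, with median log2 fold changes of -0.57, -0.09 and -0.06. In such bulk RNA, fewer cells of a type and less RNA per cell cannot be told apart, and the part of these cell type differences in the results for the 10 genes was not tested beyond leaving out libraries. Total normalized reads per library (7615403 to 8171138 in Control, 5419800 to 5843024 in AdCKO) were taken after normalization, so sequencing depth is unknown.

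Of the 10 genes, Sqstm1 and Gabarapl1 rose in AdCKO iBAT, 6 fell (Pink1, Bnip3, Map1lc3a, Map1lc3b, Ulk1 and Becn1), and Bnip3l and Fundc1 did not pass the test (limma on log2(value + 1), adjusted p under 0.01 over the 11244 genes tested). The same test called 25.6% of all tested genes higher and 28.0% lower, so a change as such was common in this tissue. The median log2 fold change was -0.42 over the 10 genes and -0.01 over all tested genes. At an adjusted p under 0.05, which called 31.8% of all genes higher and 33.8% lower, Fundc1 joined the genes that fell. The AdCKO libraries lay wholly above the Control libraries for Sqstm1 and Gabarapl1 and wholly below them for Pink1, Bnip3, Map1lc3b, Ulk1 and Becn1. Over all tested genes, 24.5% lay wholly above and 26.4% wholly below.

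**Figure D1:**
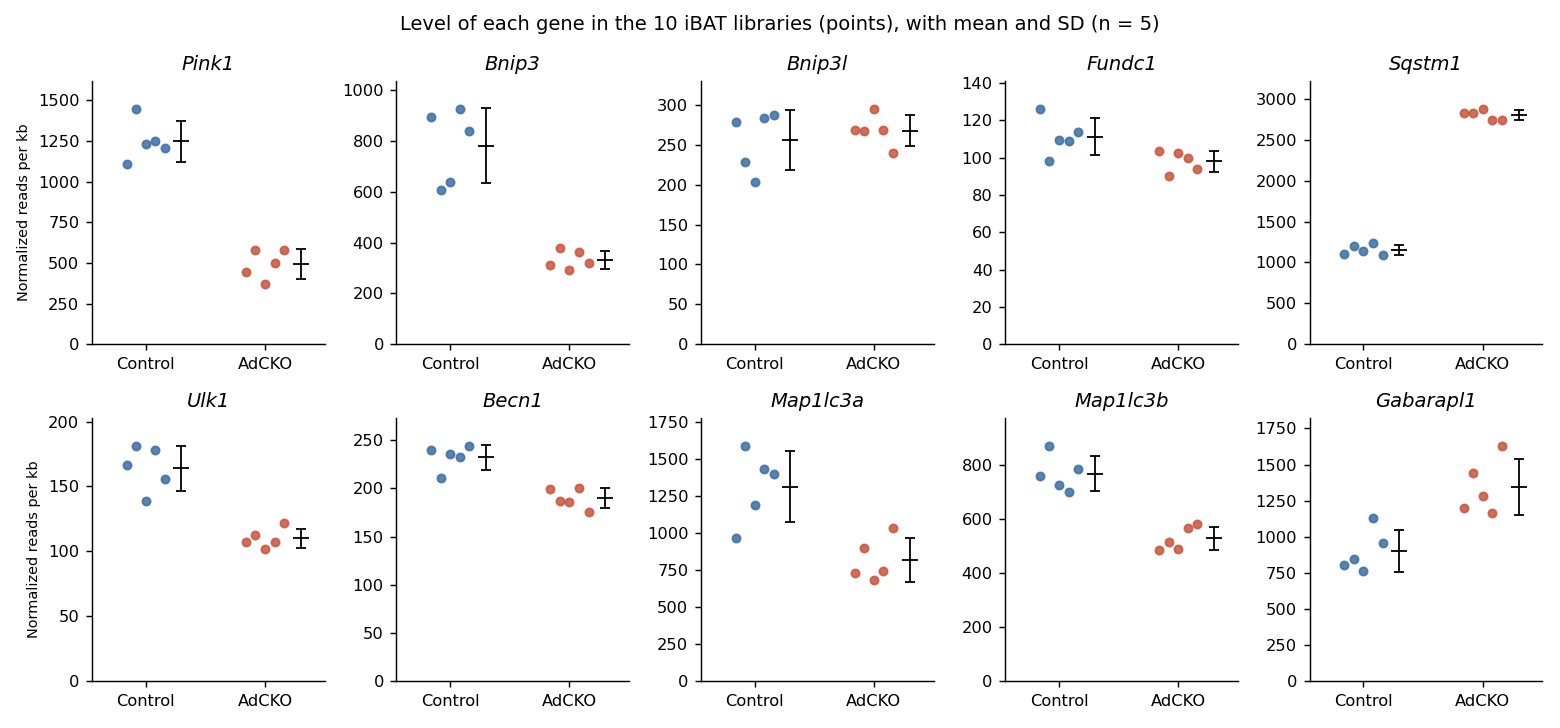
Level of each of the 10 genes (y axis, normalized reads per kb, starting at 0) in the 5 Control and 5 AdCKO libraries, in the order of replicate numbers, with the mean and SD of each group beside the points. The Sqstm1 points form 2 tight groups, near 1153 in Control and near 2803 in AdCKO, while the Bnip3l points of the groups overlap.

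Calls and some directions depended on how libraries were scaled to each other. When every library was scaled to the same total, the median of all tested genes moved up by 0.47 on the log2 scale, 60.6% of genes were called higher and 9.77% lower, and of the 10 genes 4 were then higher (Sqstm1, Gabarapl1, Bnip3l and Fundc1) and 2 lower (Pink1 and Bnip3). The calls for Map1lc3a, Map1lc3b and Ulk1 were lost there, at -0.20, -0.06 and -0.09, and the values of Fundc1 and Becn1 changed sign. This scaling moves all genes of a library alike. Relative to the median of all genes, the values were then -1.33 for Pink1, -1.19 for Bnip3, 0.60 for Gabarapl1 and 1.30 for Sqstm1. For the other genes they were -0.66 (Map1lc3a), -0.55 (Ulk1), -0.52 (Map1lc3b), -0.27 (Becn1), -0.16 (Fundc1) and 0.09 (Bnip3l). Under quantile normalization, with 22.5% of all genes higher and 31.1% lower, the same 2 genes were higher and 4 were lower, and the calls for Map1lc3a and Becn1 were lost. With AdCKO 1, 2 and 4 left out, which gave 18.7% of genes higher and 19.3% lower, 2 were higher and 5 lower, and the call lost was that of Map1lc3a.

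**Figure D2:**
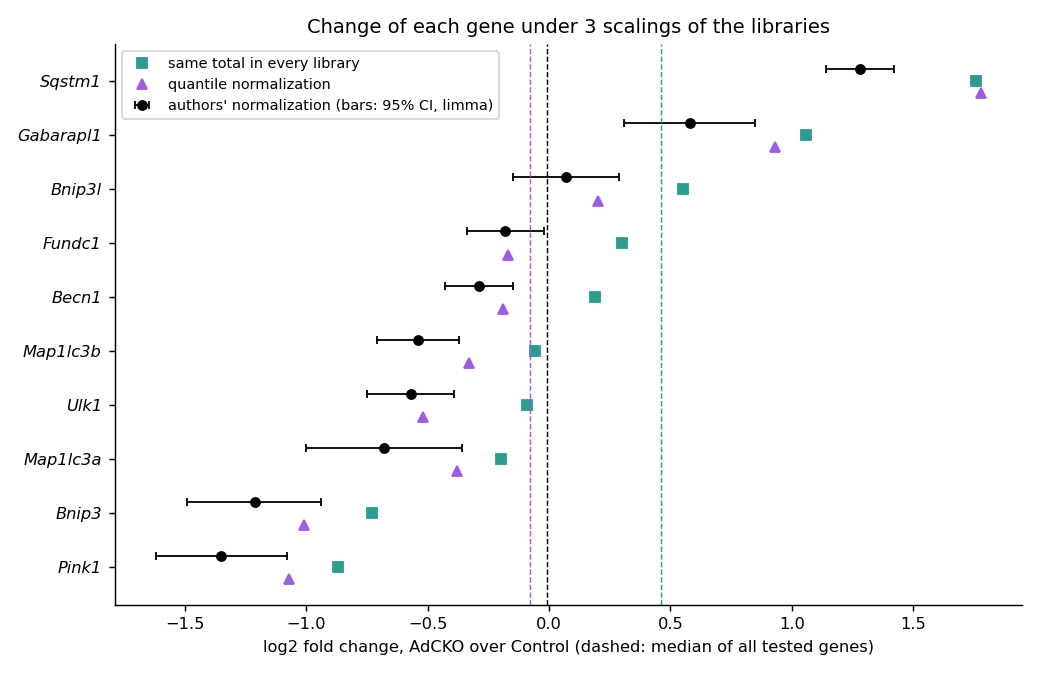
Log2 fold change of AdCKO over Control for each gene (x axis) with the authors' normalization (black circles, with 95% confidence intervals from limma), the same total in every library (squares) and quantile normalization (triangles). Dashed lines give the median of all tested genes under each, at -0.01, 0.46 and -0.08. Pink1, Bnip3, Sqstm1 and Gabarapl1 were called in all 3. Only Fundc1 and Becn1 change side, and lie above 0 with the same total and below it otherwise.

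The 250 bases before the transcription start are shown for the 2 genes that rose and the 2 that fell most. These 4 were called in the same direction under every scaling. They are RefSeq sequences on GRCm38.p6, printed 5′ to 3′ on the gene's strand, with matches to the motifs searched in capitals. Sqstm1 is at chr11:50210821-50211070 (minus strand), Gabarapl1 at chr6:129532942-129533191 (plus), Pink1 at chr4:138326297-138326546 (minus) and Bnip3 at chr7:138909507-138909756 (minus).
Sqstm1: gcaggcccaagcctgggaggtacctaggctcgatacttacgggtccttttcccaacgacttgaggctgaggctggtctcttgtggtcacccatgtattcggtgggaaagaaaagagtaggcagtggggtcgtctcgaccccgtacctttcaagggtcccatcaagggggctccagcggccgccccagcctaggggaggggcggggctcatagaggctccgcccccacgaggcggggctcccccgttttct
Gabarapl1: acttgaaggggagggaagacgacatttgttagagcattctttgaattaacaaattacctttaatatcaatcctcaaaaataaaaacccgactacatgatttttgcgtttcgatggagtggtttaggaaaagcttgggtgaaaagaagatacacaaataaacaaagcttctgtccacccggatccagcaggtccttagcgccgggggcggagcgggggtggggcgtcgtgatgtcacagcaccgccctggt
Pink1: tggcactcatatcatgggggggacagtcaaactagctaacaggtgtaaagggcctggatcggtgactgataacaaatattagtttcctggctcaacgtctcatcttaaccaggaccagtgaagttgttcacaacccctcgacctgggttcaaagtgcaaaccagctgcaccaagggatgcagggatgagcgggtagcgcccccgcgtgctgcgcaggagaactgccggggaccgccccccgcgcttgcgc
Bnip3: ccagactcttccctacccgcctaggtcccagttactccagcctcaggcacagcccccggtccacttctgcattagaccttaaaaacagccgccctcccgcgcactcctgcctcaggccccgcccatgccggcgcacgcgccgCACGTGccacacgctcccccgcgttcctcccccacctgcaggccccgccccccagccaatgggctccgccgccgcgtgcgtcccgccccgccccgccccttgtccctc
Both strands were searched for CACGTG (an E-box of the kind TFEB binds), ACGTG (the core of the hypoxia response element, which lies within CACGTG), TGACNNNGC (the core of the antioxidant response element) and TGATGNAA (the core of the amino acid response element bound by ATF4 dimers). These were found in 6.02%, 16.6%, 10.2% and 3.45% of 32851 windows of the same length. Among the 10987 windows of tested genes the shares were 8.37%, 21.6%, 11.9% and 2.01%. A window was at hand for 7 of the 10 genes, the other three being Bnip3l, Map1lc3a and Becn1. Only Bnip3 among the 7 held a match, a CACGTG from 108 to 103 bases before the start, which also accounts for its ACGTG. GC content was 72.4% for Bnip3, 63.2% for Sqstm1, 57.2% for Pink1 and 46.8% for Gabarapl1, beside a median of 52.4% over all windows.

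Pink1 (chr4:137869325-137882211 on mm9, minus strand) showed the largest fall of the 10. In Control 1 to 5 it was measured at 1106, 1445, 1230, 1248 and 1205 (all levels that follow are per kb). In AdCKO 1 to 5 it was 446.0, 579.0, 368.8, 498.0 and 579.9. Every AdCKO library was thus below the lowest Control library, and AdCKO 3 was the lowest of all. The group means were 1247 ± 123 and 494.3 ± 90.3 (SD, n = 5), which puts AdCKO at 39.7% of Control. The log2 fold change of -1.35 had an SE of 0.12 and a 95% confidence interval of -1.62 to -1.08 (limma adjusted p = 1.49e-06). AdCKO 3 and 5, both with low summed skeletal muscle markers, lay at the opposite ends of the AdCKO range. Without AdCKO 1, 2 and 4 the log2 fold change was -1.42. By limma rank of p, Pink1 was number 1037 of all tested genes.

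Among the outer membrane receptors, Bnip3 fell while its paralog Bnip3l did not pass the test. Bnip3 (chr7:146082519-146101189, minus strand), a hypoxia-responsive receptor of the BCL2 family, was at 892.8, 608.0, 640.4, 925.2 and 840.4 in Control 1 to 5. It was at 313.7, 378.7, 292.4, 361.3 and 319.5 in AdCKO 1 to 5. Control 2 and 3 were well below the other Control libraries but still above every AdCKO library. Its mean thus fell to 42.6% of Control (781.4 ± 147 against 333.1 ± 35.7), or by 1.21 ± 0.13 (SE) on the log2 scale (limma adjusted p = 4.52e-06).

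Bnip3l (chr14:67604077-67627714, minus strand), the receptor NIX known for clearing mitochondria from maturing red cells, was at 278.2, 228.4, 203.7, 282.9 and 287.1 in Control 1 to 5. In AdCKO 1 to 5 it was at 268.2, 267.7, 294.5, 268.1 and 239.1. The groups overlapped, and again Control 2 and 3 were the low Control libraries. These 2 libraries also held the highest summed macrophage markers of the Control group (942.9 and 1591), a link that was not tested. The means were 256.1 ± 37.7 and 267.5 ± 19.6, with a log2 fold change of 0.07 and a 95% confidence interval of -0.15 to 0.29 (limma adjusted p = 0.548). With the same total in every library it was called higher, at 0.55.

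Because both receptors can be read in the same library, a constant factor per library cancels from their ratio. The ratio of Bnip3 to Bnip3l was 3.21, 2.66, 3.14, 3.27 and 2.93 in Control 1 to 5. It was 1.17, 1.41, 0.993, 1.35 and 1.34 in AdCKO 1 to 5. Bnip3 was thus about 3.04 ± 0.249 times as high as Bnip3l in Control and 1.25 ± 0.171 times as high in AdCKO, a difference of -1.29 in the log2 ratio (SE 0.11, exact two-sided permutation test, p = 0.0079, adjusted over 5 ratios p = 0.013). A p of 0.0079 is the smallest that 5 against 5 libraries can give. Quantile normalization, which is not a constant factor, gave a difference of -1.22.

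Fundc1 (chrX:17133695-17149423, minus strand), a further hypoxia-linked receptor, was the lowest of the 10 in both groups. Its level was 126.0, 98.44, 109.7, 108.9 and 113.7 in Control 1 to 5. In AdCKO 1 to 5 it was 103.8, 90.3, 102.4, 99.78 and 93.71. Control 2 lay within the AdCKO range, and AdCKO 2 and 5 lay below every Control library. The means were 111.4 ± 9.94 and 97.99 ± 5.78, with a log2 fold change of -0.18 (95% CI -0.34 to -0.02, limma adjusted p = 0.0495), which turned to 0.30 with the same total in every library.

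Sqstm1 (chr11:50013654-50024322, minus strand), which encodes the ubiquitin-binding adaptor p62, rose most of the 10 and varied least. Its level was 1102, 1207, 1141, 1232 and 1086 in Control 1 to 5. In AdCKO 1 to 5 it was 2831, 2826, 2874, 2745 and 2739. The gap between the groups was many times the range within either. The means of 1153 ± 63.8 and 2803 ± 58.8 give a 2.43-fold rise, 1.28 ± 0.06 (SE) on the log2 scale (limma adjusted p = 1.98e-08). Sqstm1 was number 80 by p of all tested genes, its coefficient of variation was 5.54% in Control and 2.1% in AdCKO, and its log2 fold change was also 1.28 with AdCKO 1, 2 and 4 left out.

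The other ubiquitin-binding receptors in the table did not share the rise with the authors' normalization. Nbr1, the adaptor most like p62 in its domains, was at 280.1 ± 25.4 in Control and 247.0 ± 9.83 in AdCKO (log2 fold change -0.18, limma adjusted p = 0.0461). Optn, Tax1bp1 and Tollip had log2 fold changes of 0.13, -0.04 and -0.01 and were not called. With the same total, however, all 5 genes of this list were called higher, and under quantile normalization 2 of the 5 were. The ratio of Sqstm1 to Nbr1 was 3.55, 4.38, 4.73, 4.22 and 3.85 in Control 1 to 5 and 11.9, 11.2, 11.5, 11.7 and 10.6 in AdCKO 1 to 5. It went from 4.15 ± 0.459 to 11.4 ± 0.485, a difference of 1.46 in the log2 ratio (SE 0.08, exact two-sided permutation test, p = 0.0079, adjusted over 5 ratios p = 0.013). It was 1.82 under quantile normalization.

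The ATG8 genes moved in different directions: 1 of the 5 was called higher and 3 lower with the authors' normalization, but 2 higher and 0 lower with the same total. Map1lc3a (chr2:155102100-155103809, plus strand), which encodes LC3A, was at 963.4, 1587, 1186, 1430 and 1398 in Control 1 to 5. In AdCKO 1 to 5 it was at 731.5, 895.0, 679.3, 743.4 and 1036. AdCKO 5 lay above Control 1, so the groups overlapped, and the other 4 AdCKO libraries lay below all Control libraries. The means were 1313 ± 242 and 817.1 ± 147, and the log2 fold change was -0.68 ± 0.15 (SE, adjusted p from limma = 0.00141), the least precise of the 8 changes called. It was -0.20 and not called with the same total, -0.38 (limma adjusted p = 0.0188) under quantile normalization, and -0.62 (limma adjusted p = 0.0247) without AdCKO 1, 2 and 4.

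Map1lc3b (chr8:124114368-124121947, plus strand) encodes LC3B, the form most used as an autophagosome marker. It was at 759.4, 869.3, 724.0, 697.9 and 785.4 in Control 1 to 5. It was at 484.7, 515.3, 489.6, 565.0 and 580.1 in AdCKO 1 to 5. All AdCKO libraries were below all Control libraries. From 767.2 ± 66.1 the mean fell to 527.0 ± 43.5, a log2 fold change of -0.54 ± 0.08 (SE, adjusted p from limma = 7.62e-05) that was -0.06 and not called with the same total. The ratio of Map1lc3a to Map1lc3b was 1.71 ± 0.288 in Control and 1.55 ± 0.209 in AdCKO, a difference of -0.14 in the log2 ratio (SE 0.14) that did not pass the exact two-sided permutation test (p = 0.37).

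Gabarapl1 (chr6:129483210-129492349, plus strand), a GABARAP-like ATG8 gene, rose. It was at 806.4, 848.4, 764.5, 1131 and 955.6 in Control 1 to 5. It was at 1199, 1442, 1285, 1167 and 1629 in AdCKO 1 to 5. The groups did not overlap, but the gap between Control 4 and AdCKO 4 was small. Means of 901.1 ± 147 and 1345 ± 192 give a 1.49-fold rise, 0.58 ± 0.12 (SE) on the log2 scale (limma adjusted p = 0.00116). Annotated exons of 1700101I11Rik, on the opposite strand, share 35 bases with its own exons, and whether the counting used strand is not given in the sources used here.

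With the authors' normalization, Gabarapl2 (GATE-16) fell from 480.6 ± 11.6 to 334.8 ± 20.6 (log2 fold change -0.52, limma adjusted p = 9.59e-06). Gabarap, the most abundant ATG8 gene, was at 2154 ± 182 and 2056 ± 150 and was not called there. Of the 5 ATG8 genes, 2 were called higher and 0 lower with the same total, beside 60.6% and 9.77% of all tested genes. Under quantile normalization 2 were higher and 2 lower, beside 22.5% and 31.1%. The ratio of Gabarapl1 to Gabarapl2 was 1.72, 1.76, 1.59, 2.26 and 2.02 in Control 1 to 5 and 3.63, 4.53, 3.64, 3.73 and 4.53 in AdCKO 1 to 5. It went from 1.87 ± 0.269 to 4.01 ± 0.476, a difference of 1.10 in the log2 ratio (SE 0.12, exact two-sided permutation test, p = 0.0079, adjusted over 5 ratios p = 0.013). Under quantile normalization this was 1.28. As shares of the summed level of the 5 ATG8 genes, Gabarapl1 went from 16.1 ± 2.27% to 26.4 ± 2.28%, Map1lc3a from 23.2 ± 2.41% to 16.0 ± 2.03% and Map1lc3b from 13.7 ± 1.27% to 10.4 ± 0.878%. The share of Gabarap was 38.4% in Control and 40.6% in AdCKO with overlapping ranges. The summed level itself overlapped between the groups (4898 to 6161 in Control libraries, 4794 to 5423 in AdCKO libraries).

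**Figure D3:**
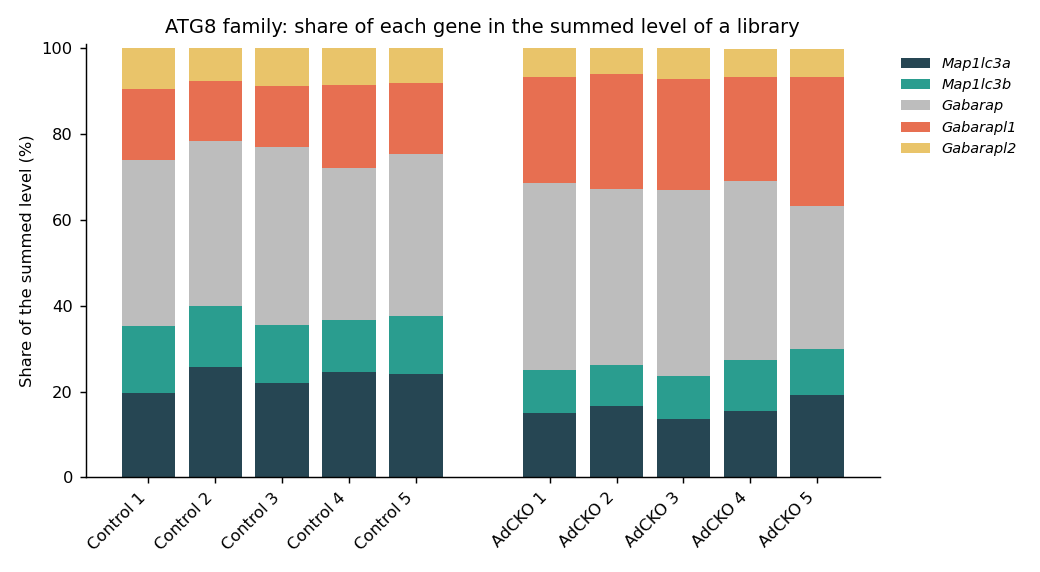
Share of each of the 5 ATG8 genes (stacked bars, y axis in percent) in their summed level per kb, for each library. The Gabarapl1 share is 13.8% to 19.4% in Control libraries and 24.3% to 30.0% in AdCKO libraries, and the Map1lc3a share is smaller in every AdCKO library (13.7% to 19.1%) than in any Control library (19.7% to 25.8%).

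Both genes of autophagosome initiation fell with the authors' normalization. Ulk1 (chr5:111213508-111239100, minus strand), the kinase that starts the process, was at 166.8, 181.2, 139.0, 178.0 and 155.4 in Control 1 to 5. In AdCKO 1 to 5 it was at 107.1, 112.3, 102.0, 107.5 and 121.4. No AdCKO library reached the lowest Control library, Control 3. The group means were 164.1 ± 17.3 and 110.1 ± 7.28, and the log2 fold change of -0.57 ± 0.08 (SE, adjusted p from limma = 6.59e-05) was -0.09 and not called with the same total. Ulk2 fell too (-0.43), and the ratio of Ulk1 to Ulk2 was 1.94 ± 0.256 and 1.76 ± 0.136, a difference of -0.13 in the log2 ratio (SE 0.10, exact two-sided permutation test, p = 0.22).

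Becn1 (chr11:101149581-101163581, minus strand) was at 239.5, 210.7, 235.8, 232.2 and 244.1 in Control 1 to 5. It was at 199.4, 187.0, 186.3, 200.1 and 175.2 in AdCKO 1 to 5. The groups did not overlap, although the difference was the smallest of those called. Between means of 232.5 ± 12.9 and 189.6 ± 10.4, the log2 fold change of -0.29 ± 0.06 (SE, adjusted p from limma = 0.00151) was 0.19 with the same total and -0.19 (limma adjusted p = 0.0296) under quantile normalization. Its annotated exons share 3104 bases with those of Cntd1 on the opposite strand, beside 1596 exon bases counted for Becn1. Cntd1 was at 3.29 to 5.35 per kb and was not tested. As for Gabarapl1, whether the counting used strand is not given in the sources used here.

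**Figure D4:**
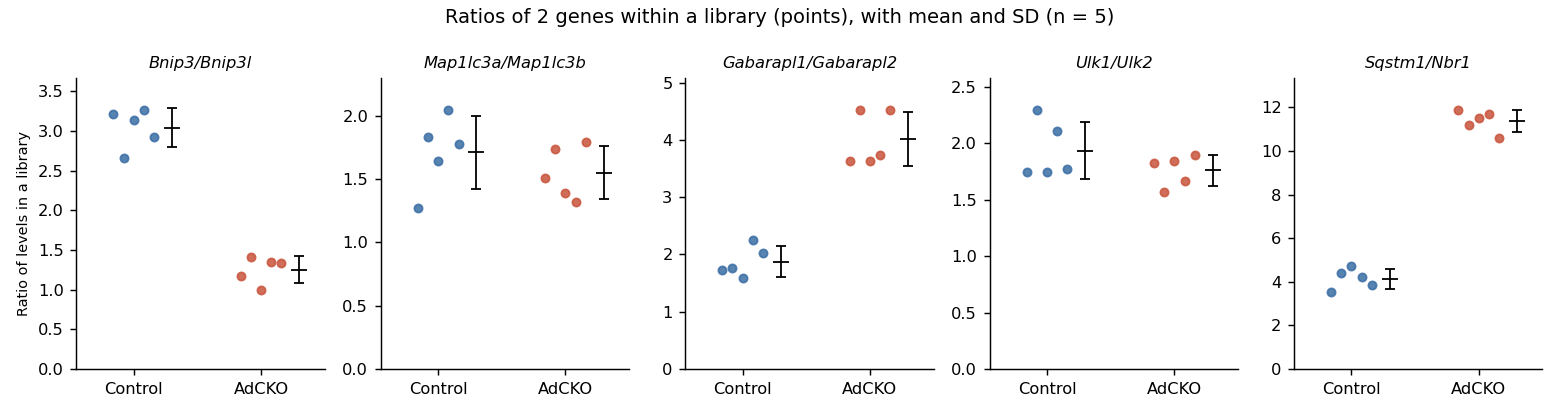
Ratio of the levels of 2 related genes within each library (points, y axis starting at 0), with the mean and SD of each group. The ratios for Bnip3/Bnip3l, Gabarapl1/Gabarapl2 and Sqstm1/Nbr1 do not overlap between Control and AdCKO, whereas those for Map1lc3a/Map1lc3b and Ulk1/Ulk2 do.

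The order of the levels changed with the genotype. In Control, Map1lc3a (mean 1313), Pink1 (1247) and Sqstm1 (1153) were the highest, and the ranges of each with the next overlapped. Gabarapl1, Bnip3 and Map1lc3b followed, also with overlapping ranges, and a gap then set off Bnip3l, Becn1, Ulk1 and Fundc1. In AdCKO, Sqstm1 (2803) stood alone, above Gabarapl1 (1345) and Map1lc3a (817.1) with no overlap between these 3. Map1lc3b, Pink1, Bnip3 and Bnip3l came next, each overlapping with its neighbour, and the lowest 3 were again Becn1, Ulk1 and Fundc1. Pink1 thus moved down by 3 places in the order of means.

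Within the AdCKO group the libraries did not rank alike for all genes. AdCKO 3 had the lowest Pink1, Bnip3, Map1lc3a and Ulk1 and the highest Bnip3l and Sqstm1. AdCKO 5 had the highest Pink1, Map1lc3a, Map1lc3b, Gabarapl1 and Ulk1 and the lowest Bnip3l, Sqstm1 and Becn1. AdCKO 5 also had the highest summed brown adipocyte markers of its group (33150) and the lowest summed macrophage markers (6547), and the part of either in this order was not tested.

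Of 82 further genes of autophagy and mitophagy, sorted into 11 lists by role, 80 were tested. With the authors' normalization 8 rose, 31 fell and 41 were not called, which is 10% higher and 38.8% lower beside 25.6% and 28.0% of all tested genes. With the same total 46 were higher and 5 lower, beside 60.6% and 9.77% of all genes. The median log2 fold change of the 80 genes was -0.11 with the authors' normalization (-0.01 over all genes) and 0.37 with the same total (0.46 over all genes). Leaving out AdCKO 1, 2 and 4 gave 6 higher and 21 lower, beside 18.7% and 19.3% of all genes. Counts by list include the members among the 10 genes, and the counts with the same total follow in parentheses.

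Closest to the mitochondria, 5 of 8 mitochondrial receptor genes fell and 0 rose (2 lower and 3 higher). Nipsnap1, a matrix protein that can signal mitophagy at the mitochondrial surface, fell by 1.47 on the log2 scale, from 122.2 ± 15.1 to 43.34 ± 2.76 (limma adjusted p = 4.96e-08), which is a larger fall than that of Bnip3. Its relative Gbas (Nipsnap2) was at -0.51, the prohibitin Phb2 at -0.52 and the receptor Bcl2l13 at -0.46, all called lower. In the PINK1-Parkin list 4 of 8 fell and 0 rose (1 lower and 4 higher). The ligase gene Park2 (Parkin) was low in both groups, at 23.88 ± 2.19 and 15.38 ± 1.22, with a log2 fold change of -0.60 (limma adjusted p = 9.29e-05). The deubiquitinase Usp30, which opposes Parkin, was at -0.33, and the ligase Mul1 at -0.40, both called lower.

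In the ULK complex, Ulk1 and Ulk2 fell, and the scaffold genes Atg13 (0.07), Rb1cc1 (-0.02) and Atg101 (0.03) were not called (0 lower and 3 higher of 5). The class III PI3K list was split, with 2 higher and 2 lower of 8 (0 lower and 6 higher). Uvrag and Nrbf2, which bind the Beclin 1 complex, both had a log2 fold change of 0.54, while the catalytic subunit gene Pik3c3 was at -0.47. In the list of ATG8 conjugation and processing 6 of 11 fell and 0 rose (0 lower and 3 higher). The fall was largest for the protease gene Atg4d (-0.70) and the E2-like enzyme genes Atg10 (-0.67) and Atg3 (-0.49).

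Among 9 genes that supply lipid to the growing membrane 5 fell and 1 rose (2 lower and 3 higher). Wipi2, which reads PI3P on the membrane, went from 367.1 ± 41.9 to 180.3 ± 19.4 (log2 fold change -1.02, limma adjusted p = 1.98e-06), and the scramblase gene Atg9b from 26.85 ± 8.45 to 7.339 ± 0.967 (-1.69). Atg9b reached the level set for testing, a mean of 10, only in Control. Against these falls, Vmp1 was higher at 0.63. In the fusion list 2 of 9 fell and 1 rose (0 lower and 7 higher), and with quantile normalization 3 were higher and 2 lower. The SNARE genes Stx17 (-0.58) and Snap29 (-0.48) were the 2 that fell, and the lysosomal membrane gene Lamp1 was higher (0.25).

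Of 14 tested genes of nutrient kinases and their regulators 7 fell and 1 rose (2 lower and 7 higher). Mtor fell by 0.75 on the log2 scale, from 284.3 ± 23.8 to 168.4 ± 17.4 (limma adjusted p = 7.43e-06), and the AMPK subunit genes Prkab1 and Prkag1 were at -1.19 and -0.62. The AMPK subunit gene Prkab2 was the exception at 0.84. Its AdCKO levels of 33.94, 54.93, 26.82, 34.86 and 26.38 were highest in AdCKO 1, 2 and 4, the libraries with high skeletal muscle markers, and those of AdCKO 3 and 5 still lay above the Control maximum of 20.89. Among 8 transcription factors of autophagy genes 3 rose and 1 fell (0 lower and 7 higher). Atf4, a factor of the integrated stress response, went from 614.8 ± 155 to 1423 ± 277 (1.22, limma adjusted p = 6.30e-05), Tfeb was at 0.51 and Mitf at 0.53, and Foxo1 was lower at -0.58. A transcript level does not give the activity of such a factor.

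**Figure D5:**
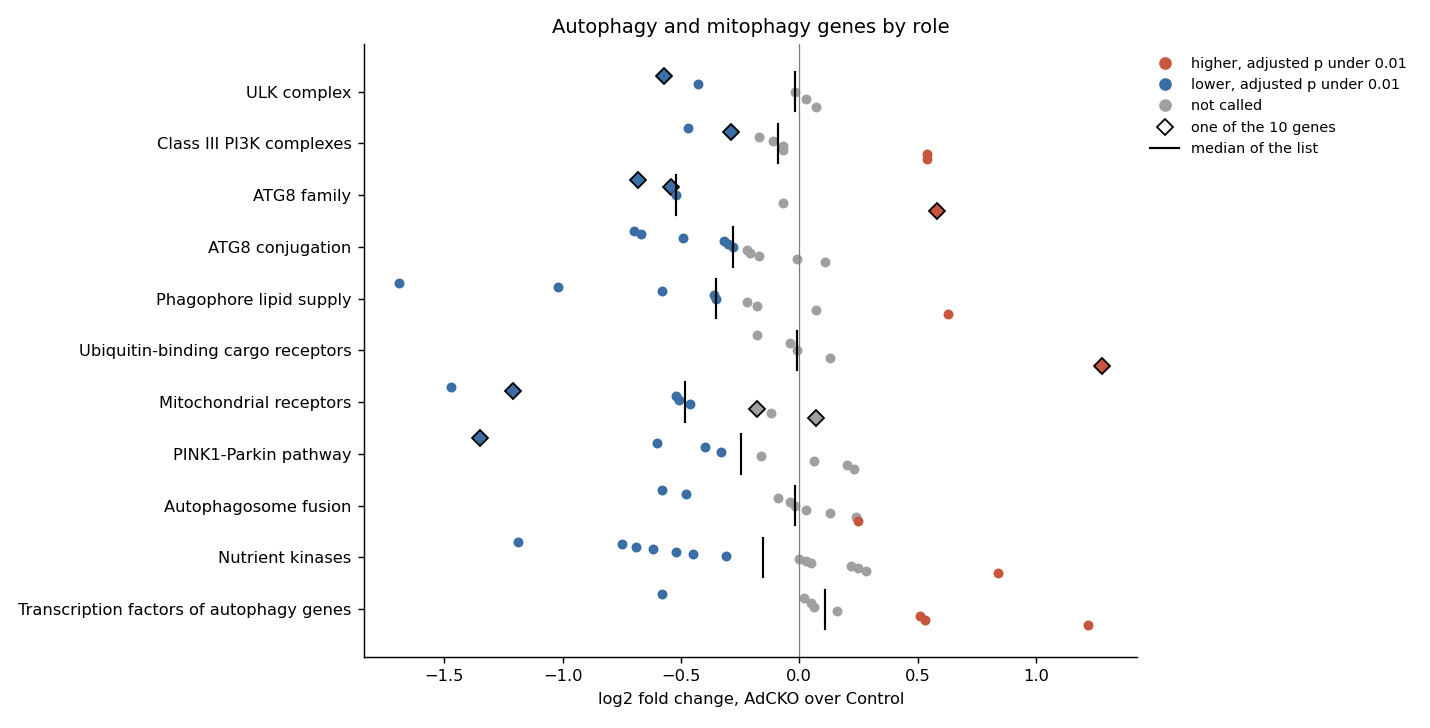
Log2 fold change of AdCKO over Control (x axis) for each tested gene of 11 lists by role, with the authors' normalization. Red points were called higher, blue points lower and grey points neither, diamonds are the 10 genes described here and black lines are list medians. Sqstm1 is alone at 1.28 in its list. All called points of the conjugation, mitochondrial receptor and PINK1-Parkin lists lie below 0. When every library is scaled to the same total, some of them leave that side, while the median of all tested genes moves to 0.46. These 3 lists then hold 0, 2 and 1 genes called lower.

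The genes whose log2 levels ran most like Sqstm1 over the 10 libraries were Cx3cl1 (Pearson r = 0.997), Col1a1 (0.9965) and Nid2 (0.9963). Those most like Pink1 were Mrpl40 (0.9978), Ssu72 (0.9967) and Aldoa (0.9942). These correlations are a description over 2 groups of 5 libraries, and the points share the difference between the groups and the normalization. A gene thus comes out high if it differs in the same direction by much more than its spread, whatever its fold change.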

How the data were processed

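RNA-seq of iBAT from 5 Control and 5 AdCKO mice was analysed, with groups and replicate numbers taken from the sample labels. The authors prepared polyadenylated RNA libraries (TruSeq 2), aligned them to mm9 with STAR, counted reads in exons with HOMER and iRNA-seq, and normalized with DESeq2. The deposited table gives a signal named as normalized reads per kb. No value in it is 0, and the transformation behind this is not named in the sources used here, so levels near the smallest values cannot be read as plain reads. Counts were not used here. The table also holds the authors' fold changes and adjusted p-values, which were not used, nor were their lists of called genes.

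A pseudocount of 1 was added before log2, and genes with a mean of at least 10 in Control or AdCKO were tested with limma 3.58.1 in R 4.3.3 (intensity trend, two-sided, Benjamini-Hochberg, threshold 0.01). Fold changes on this scale understate those of low genes. Within-library ratios were compared with an exact permutation test in SciPy 1.17.1, at a threshold of 0.05. The limma script was tested on simulated data. The deposited start positions count from 0 and were raised by 1. How reads matching several copies of a gene were counted is not given in the sources used here.

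The 10 genes, lists and markers were chosen with earlier results of these data known. Further genes are named by a rule: at most 4 per list with the smallest p, called genes against the direction of their list, and the 3 genes most like the rising and the falling member with the smallest p. Nothing ties a mouse's replicate number to another group. Alternatives were pseudocounts 0.1 and 10, testing every gene, a lower filter (mean of at least 1), the same total, quantile normalization, no trend, a robust trend, a replicate block, a threshold of 0.05 and each library left out. Leaving out AdCKO 1, 2 and 4 was chosen after seeing the data.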

Additional observations from a re-analysis of the deposited data

Results flagged for a closer look

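Single libraries stood apart from the other 4 of their group (Dixon's test, ratio above 0.71) in 11 of 132 groups tested, where chance gives about 1 in 20. None was a level of the 10 genes. In AdCKO these were Rb1cc1 at 52.47 normalized reads per kb in AdCKO 4, Atg101 at 196.9 and Prkag1 at 244.0 in AdCKO 5, and Gbas at 462.4 in AdCKO 2. In Control they were Atg16l1 at 117.7 and Nipsnap1 at 148.8 in Control 2, Bcl2l13 at 237.2 and Usp8 at 277.6 in Control 3, and Foxo1 at 206.6 in Control 1. The summed lymphoid markers stood apart at 34.24 in Control 3 and at 143.2 in AdCKO 1.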

How the results depend on the processing

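Scaling all libraries to the same total gave 6811 genes called higher and 1098 lower (86.1% of calls higher, against 47.7% with the authors' normalization), with 4 and 2 of the 10 genes and 46 and 5 of the other pathway genes, and the log2 fold changes of Fundc1 (0.30) and Becn1 (0.19) changed sign by the construction of that scaling. At an adjusted p under 0.05, 13 other pathway genes were higher and 34 lower, beside 31.8% and 33.8% of all genes. Leaving out 1 library at a time gave 2648 to 2874 genes higher and 2879 to 3066 lower, 7 to 9 other pathway genes higher and 27 to 31 lower, and each time 2 of the 10 genes higher and 6 lower. Bnip3l was at -0.01 without Control replicate 3 and at up to 0.12 otherwise. Without AdCKO 1, 2 and 4 the differences in log2 ratio between AdCKO and Control were -1.39 (Bnip3/Bnip3l), 1.13 (Gabarapl1/Gabarapl2) and 1.42 (Sqstm1/Nbr1). The smallest exact permutation p of 0.095 cannot pass there.

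Replicate numbers did not pair the samples: residuals of same-numbered libraries correlated at -0.2681 to 0.09796. With the replicate number as a block 2592 genes were higher and 2838 lower. The differences in log2 ratio of -1.29, 1.10 and 1.46 then had an exact sign-flip p of 0.0625 (0.1 adjusted over the 5 ratios). That is the smallest p that 5 pairs can give, so it cannot pass and says nothing of stability. The planned count tests (edgeR, DESeq2) were not run, since whole reads could not be recovered: 22.6% to 23.9% of low values per library lay near a step of whole reads, against 20% by chance. Depth before normalization is unknown, so the spread between 5 mice is the only measure of error.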
